A study of Arabidopsis thaliana with 12 samples.

Results

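The 10 core genes of the Arabidopsis thaliana circadian clock described here were followed by locus identifier across heated and unheated germinating seeds of the wild type and a cyclophilin mutant. They were LHY (AT1G01060), CCA1 (AT2G46830), RVE8 (AT3G09600), PRR9 (AT2G46790), PRR7 (AT5G02810), PRR5 (AT5G24470), TOC1 (AT5G61380), GI (AT1G22770), ELF3 (AT2G25930) and ELF4 (AT2G40080), of 23337 genes in the expression table, and all 10 passed the filter on low counts. In the TAIR10.1 annotation the morning genes lie with LHY at chr1:33365-37871, CCA1 at chr2:19245591-19248915 and RVE8 at chr3:2946239-2949017. The daytime genes lie with PRR9 at chr2:19232607-19235179, PRR7 at chr5:637681-642030 and PRR5 at chr5:8356204-8358546. The evening genes lie with TOC1 at chr5:24674963-24678550, GI at chr1:8061751-8067790, ELF3 at chr2:11058944-11063324 and ELF4 at chr2:16734294-16734953. The set was chosen by measured values, since the pattern of LHY, lower in heat and higher in the mutant, was in view. The values of LHY are therefore a description with no test, and counts of changed genes are over the other 9.

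The study set the wild type (WT) beside atcyp18-1, in which the cyclophilin gene CYP18-1 (AT1G01940) is mutated; the labels give no further allele. Seeds were stratified for 2 days at 4 °C, plated on agar and sampled 1 day after imbibition. They were either kept without heat or held for 2 h at 45 °C. Polyadenylated RNA was sequenced in 12 libraries, 3 for each of 4 groups, with 7.47 to 10.5 M reads in genes. The labels give neither the hour of sampling nor the light regime, nor whether replicate libraries are of different seed batches. The p-values thus cover only sample-to-sample spread here, possibly technical, and the part of the hour of sampling in any result was not tested. In bulk seed RNA, fewer cells of a type and less RNA per cell cannot be told apart.

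The plant clock is a network of transcription factors that repress one another through the day. In the morning LHY and CCA1, a related pair of MYB factors, repress evening genes such as TOC1 and GI by binding the evening element in their promoters. PRR9, PRR7 and PRR5 then follow each other through the day and repress LHY and CCA1, and TOC1 does so in the evening. ELF3, ELF4 and LUX form the evening complex, a repressor of PRR9, PRR7 and GI. GI stabilises the F-box protein ZTL, which marks TOC1 and PRR5 for breakdown. RVE8, a MYB factor related to CCA1, works with the LNK coactivators to switch evening genes on.

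The sequences that carry the findings are those of introns that gained reads in heat, of an LHY splice site and of 3 promoters, all read from the TAIR10.1 assembly. In the authors' deposited intron table, PRR7 had every one of its 8 introns listed for heat in WT. Introns are numbered here in the direction of transcription. The first lies in the 5′ untranslated region, and each of the 7 others interrupts the coding sequence and holds a stop codon in the frame of the exons before it. PRR7 introns 2, 4 and 6 and PRR9 intron 2 are shown whole, and CCA1 intron 4, which has 478 bases, by its start and its end. Capitals mark the first and last pair of bases of the intron and the first in-frame stop codon.
PRR7 intron 2, chr5:641051-641151, minus strand: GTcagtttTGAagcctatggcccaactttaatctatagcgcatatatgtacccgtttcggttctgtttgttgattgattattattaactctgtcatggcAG
PRR7 intron 4, chr5:640451-640621, minus strand: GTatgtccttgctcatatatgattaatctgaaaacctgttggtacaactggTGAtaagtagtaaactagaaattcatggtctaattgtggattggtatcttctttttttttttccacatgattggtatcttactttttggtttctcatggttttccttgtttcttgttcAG
PRR7 intron 6, chr5:639721-639818, minus strand: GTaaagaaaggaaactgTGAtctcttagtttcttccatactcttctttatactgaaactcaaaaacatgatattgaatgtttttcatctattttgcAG
PRR9 intron 2, chr2:19233323-19233419, plus strand: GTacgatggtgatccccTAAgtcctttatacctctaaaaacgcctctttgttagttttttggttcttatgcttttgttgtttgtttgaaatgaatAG
CCA1 intron 4 start, chr2:19246385-19246444, plus strand: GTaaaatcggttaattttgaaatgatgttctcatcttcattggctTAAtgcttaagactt
CCA1 intron 4 end, chr2:19246833-19246862, plus strand: gggtaacaaaactactctcatctctctcAG

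The first stop codon in frame begins at base 9 of PRR7 intron 2, at base 52 of intron 4 and at base 18 of intron 6. It begins at base 18 of PRR9 intron 2 and at base 46 of CCA1 intron 4. An Arabidopsis CCA1 transcript that keeps the fourth intron is known and is reported to make a shortened protein. The LHY acceptor below is shown because a listed junction ends at the second of its AG pairs. Annotated models use both pairs, which lie 3 bases apart and are in capitals.
LHY tandem acceptor, chr1:35460-35491, minus strand: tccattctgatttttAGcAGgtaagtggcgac

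The promoter of PRR7 is shown for its heat shock units, and those of TOC1 and PRR5 for their evening elements. Each window is the 300 bases before the annotated gene start.
PRR7 promoter, chr5:642031-642330, minus strand: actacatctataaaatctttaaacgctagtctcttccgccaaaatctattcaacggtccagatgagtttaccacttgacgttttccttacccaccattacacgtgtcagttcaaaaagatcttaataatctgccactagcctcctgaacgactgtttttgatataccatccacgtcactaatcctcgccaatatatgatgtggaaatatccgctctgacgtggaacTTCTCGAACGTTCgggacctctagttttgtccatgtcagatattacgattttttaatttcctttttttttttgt
TOC1 promoter, chr5:24674663-24674962, plus strand: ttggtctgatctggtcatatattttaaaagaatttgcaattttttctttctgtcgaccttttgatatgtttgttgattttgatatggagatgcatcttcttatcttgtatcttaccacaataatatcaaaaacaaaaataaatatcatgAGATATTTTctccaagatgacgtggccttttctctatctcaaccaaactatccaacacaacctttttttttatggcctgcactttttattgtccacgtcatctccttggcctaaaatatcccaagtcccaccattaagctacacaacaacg
PRR5 promoter, chr5:8358547-8358846, minus strand: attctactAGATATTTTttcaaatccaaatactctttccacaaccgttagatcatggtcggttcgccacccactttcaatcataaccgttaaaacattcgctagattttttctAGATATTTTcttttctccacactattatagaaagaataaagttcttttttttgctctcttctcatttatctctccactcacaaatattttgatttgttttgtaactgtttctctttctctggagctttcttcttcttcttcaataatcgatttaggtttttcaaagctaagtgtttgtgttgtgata

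In the PRR7 window, capitals mark a TTCNNGAA and a GAANNTTC that share their GAA, which makes 3 alternating heat shock units in 1 run. Of the promoters of 27443 protein-coding genes, 133 or 0.485% held such a run in either order, and PRR7 was the member that did; this run was searched for after its window had been seen. Singly, GAANNTTC was found in 11.5% of all promoters and in 3 of the 10 members (LHY, PRR7 and ELF3), and TTCNNGAA in 9.38% and in 2 (PRR7 and RVE8). In the other windows, capitals mark the evening element AAAATATCT, here on the opposite strand. It was found in 2.79% of all promoters and in 2 of the 10 members, once in TOC1 and at 2 places in PRR5. The CCA1-binding site AAAAATCT was in 7.94% of promoters and in 1 member, PRR5. The G-box CACGTG was in 7.09% of promoters and in 4 members, LHY, CCA1, PRR7 and PRR9. Each motif was searched on both strands, and a match describes these letters in this window only.

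CYP18-1 itself was read at 21.6, 23.2 and 21.4 counts per M reads (CPM, scaled by the trimmed mean of M-values, TMM) in WT without heat and at 25.3, 25.2 and 26.2 in WT heat. In the mutant it was read at 2.41, 1.71 and 1.66 CPM without heat and at 3.85, 2.17 and 4.08 in heat. All 6 mutant libraries lay below all 6 of the WT, so the mutated gene went with the labels.

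Levels of different genes were compared as TMM-scaled CPM per kb of exon. In WT without heat the highest levels were those of ELF3 (19.3 ± 1.80 CPM per kb, SD, n = 3) and TOC1 (17.8 ± 1.94), whose libraries overlapped. LHY (8.13 ± 0.256), GI (6.04 ± 0.369) and PRR7 (4.11 ± 0.0262) followed, each apart from the next in all libraries. RVE8 (3.57 ± 0.526), PRR5 (3.20 ± 0.758) and ELF4 (2.99 ± 1.19) overlapped with their neighbours, and ELF4 with CCA1 (2.01 ± 0.134). PRR9 was lowest at 0.946 ± 0.0816 CPM per kb. In the heated mutant PRR7 stood first at 26.2 ± 6.94 CPM per kb, above ELF3 (11.2 ± 0.410) in every library, and PRR5 stood last at 1.42 ± 0.230.

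**Figure D1:**
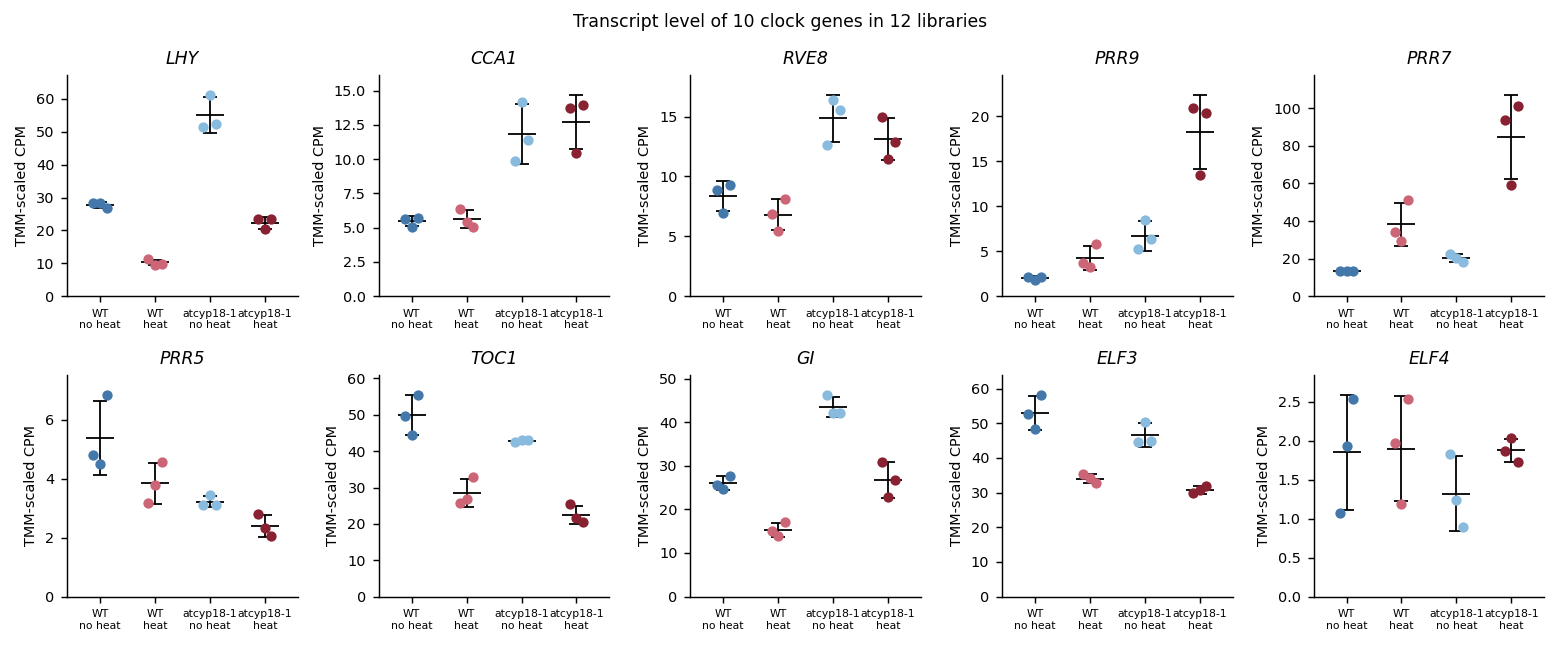
TMM-scaled CPM (vertical axis, linear, from 0) of each clock gene in the 4 groups; points are libraries, horizontal bars the mean and whiskers 1 SD (n = 3). LHY sits at 26.8 to 28.4 CPM in WT without heat and at 9.60 to 11.3 in WT heat, and PRR7 reaches 59.3 to 101 CPM in the heated mutant.

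Among the morning MYB genes, heat went with a lower level of LHY and with no called change of CCA1 or RVE8. LHY was read at 28.4, 28.2 and 26.8 CPM in WT without heat and at 11.3, 9.60 and 9.92 CPM in WT heat. Mutant libraries had 51.4, 61.2 and 52.4 CPM without heat and 23.4, 20.3 and 23.5 CPM in heat. The heated libraries lay below the unheated ones of the same genotype, and the mutant above the WT in both conditions. The log2 change in heat was -1.44 ± 0.11 (SE) in WT and -1.30 ± 0.10 in the mutant. Mutant against WT it was 0.99 ± 0.09 without heat and 1.13 ± 0.12 in heat. The heated mutant, at 22.4 ± 1.82 CPM (SD, n = 3), lay closer to unheated WT (27.8 ± 0.874) than heated WT did (10.3 ± 0.895).

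CCA1, which acts with LHY, was read at 5.66, 5.05 and 5.69 CPM in WT without heat and at 6.35, 5.45 and 5.06 CPM in WT heat. In the mutant it was read at 9.85, 14.2 and 11.4 CPM without heat and at 13.8, 10.4 and 13.97 CPM in heat. The groups with and without heat overlapped in both genotypes, while every mutant library lay above every WT library. CCA1 thus differed by genotype and not detectably by heat, with log2 changes in heat of 0.03 ± 0.19 in WT (adjusted p = 0.894, edgeR quasi-likelihood test, Benjamini-Hochberg over 17296 genes) and 0.10 ± 0.16 in the mutant (adjusted p = 0.628). It rose in the mutant by 1.12 ± 0.17 on the log2 scale without heat (adjusted p = 8.81e-05, edgeR) and by 1.18 ± 0.17 in heat (adjusted p = 0.000119). With no scaling factors the 2 heat changes turn to -0.17 and -0.13, again without a call.

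RVE8 was read at 8.88, 6.98 and 9.29 CPM in WT without heat and at 6.90, 5.45 and 8.10 CPM in WT heat. The mutant values were 12.6, 16.4 and 15.5 CPM without heat and 14.9, 11.5 and 12.9 CPM in heat. Heat groups overlapped within each genotype, and mutant libraries lay above WT libraries in both conditions. RVE8 rose in the mutant by 0.82 ± 0.16 on the log2 scale without heat (adjusted p = 0.000760, edgeR) and by 0.94 ± 0.17 in heat (adjusted p = 0.000866).

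The daytime repressors PRR9 and PRR7 went the other way from LHY in heat and the same way in the mutant. PRR9 was read at 2.15, 1.82 and 2.1 CPM in WT without heat and at 3.72, 3.20 and 5.77 CPM in WT heat. Its values in the mutant were 5.27, 8.48 and 6.33 CPM without heat and 20.9, 13.5 and 20.4 CPM in heat. The heated mutant held the highest PRR9 of the series in all of its libraries, with no overlap. PRR9 rose in heat by 1.07 ± 0.29 on the log2 scale in WT (adjusted p = 0.00426, edgeR) and by 1.44 ± 0.20 in the mutant (adjusted p = 5.43e-06). Without WT heat replicate 3, the highest of its group, the WT change was 0.77 and missed the threshold (adjusted p = 0.0514). Mutant against WT, PRR9 rose by 1.73 ± 0.27 without heat (adjusted p = 0.000116, edgeR) and by 2.09 ± 0.22 in heat (adjusted p = 1.83e-06), the widest genotype difference among the members.

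PRR7 was read at 13.4, 13.2 and 13.3 CPM in WT without heat and at 34.4, 29.5 and 51.2 CPM in WT heat. In the mutant it was read at 22.7, 20.5 and 18.1 CPM without heat and at 93.8, 59.3 and 101 CPM in heat. None of the 4 groups overlapped another. PRR7 had the largest rise in heat among the members, by 1.53 ± 0.19 on the log2 scale in WT (adjusted p = 1.09e-06, edgeR) and by 2.06 ± 0.18 in the mutant (adjusted p = 6.90e-09). It was higher in the mutant by 1.14 ± 0.17 in heat (adjusted p = 0.000112, edgeR) and by 0.62 ± 0.20 without heat (adjusted p = 0.0325). The last call is a narrow one. DESeq2 gave an adjusted p of 0.0681, and over 21 alternatives it ran from 0.00078 to 0.109, with the call kept in 13.

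PRR5, the last of the daytime repressors, was read at 4.78, 4.51 and 6.83 CPM in WT without heat and at 3.18, 3.79 and 4.55 CPM in WT heat. Mutant libraries gave 3.09, 3.43 and 3.11 CPM without heat and 2.80, 2.32 and 2.04 CPM in heat. Unlike PRR9 and PRR7 it was below the WT in each mutant group, with no overlap within a condition. PRR5 fell by 0.75 on the log2 scale in the unheated mutant (SE 0.22, adjusted p = 0.0157, edgeR). In heat the genotype change was -0.67 ± 0.26 (adjusted p = 0.0796), and the heat changes of -0.49 ± 0.21 in WT (adjusted p = 0.0585) and -0.41 ± 0.26 in the mutant (adjusted p = 0.213) were not called. Without WT normal replicate 3, its highest library, the unheated genotype change was -0.53 (adjusted p = 0.123). It was also not called without mutant normal replicate 1 (adjusted p = 0.05004) or replicate 3 (adjusted p = 0.0605), and without WT heat replicate 3 or WT normal replicate 2 the fall in WT heat was called (adjusted p = 0.0368 and 0.0363).

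The evening genes fell in heat in both genotypes, apart from ELF4. TOC1 was read at 49.7, 44.5 and 55.5 CPM in WT without heat and at 25.7, 26.9 and 32.8 CPM in WT heat. Levels in the mutant were 42.4, 43.0 and 43.2 CPM without heat and 25.3, 21.6 and 20.6 CPM in heat. Heated and unheated groups did not overlap. TOC1 fell by 0.81 on the log2 scale in WT heat (SE 0.10, adjusted p = 1.46e-06, edgeR) and by 0.92 in mutant heat (SE 0.11, adjusted p = 7.97e-07). Mutant libraries lay just below WT libraries in both conditions, with changes of -0.22 ± 0.10 without heat (adjusted p = 0.112) and -0.33 ± 0.11 in heat (adjusted p = 0.0502). Without WT heat replicate 1 or mutant heat replicate 1 the latter was called (adjusted p = 0.0349 and 0.0386), so the threshold runs through this value.

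GI was read at 25.6, 24.7 and 27.8 CPM in WT without heat and at 15.1, 13.9 and 17.1 CPM in WT heat. In the mutant it was read at 46.3, 42.1 and 42.2 CPM without heat and at 30.9, 22.8 and 26.7 CPM in heat. The unheated mutant was highest and heated WT lowest, each without overlap. GI fell in heat by 0.76 on the log2 scale in WT (SE 0.11, adjusted p = 1.32e-05, edgeR) and by 0.69 in the mutant (SE 0.11, adjusted p = 1.92e-05). It rose in the mutant by 0.74 ± 0.10 without heat (adjusted p = 4.10e-05, edgeR) and by 0.81 ± 0.12 in heat (adjusted p = 0.000115). GI was the evening gene among the members that was called between the genotypes.

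ELF3, the scaffold of the evening complex, was read at 52.7, 48.3 and 58.2 CPM in WT without heat and at 35.4, 34.1 and 32.7 CPM in WT heat. The mutant had 44.6, 50.5 and 44.8 CPM without heat and 29.8, 30.7 and 32.02 CPM in heat. ELF3 fell in heat by 0.64 on the log2 scale in WT (SE 0.09, adjusted p = 3.09e-06, edgeR) and by 0.60 in the mutant (SE 0.09, adjusted p = 1.56e-05). The genotype changes of -0.19 ± 0.08 (adjusted p = 0.116) and -0.14 ± 0.09 (adjusted p = 0.314) were not called. The heated libraries lay below the unheated ones in both genotypes. ELF3 overlaps AT2G08135 and AT2G25940 in the annotation, and without strand their reads cannot be told apart from its own.

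ELF4, a small partner of ELF3, was the member with the fewest reads, 8 to 29 per library. It was read at 1.07, 1.93 and 2.54 CPM in WT without heat and at 1.97, 1.18 and 2.53 CPM in WT heat. Mutant values were 1.83, 1.24 and 0.888 CPM without heat and 1.87, 2.03 and 1.73 CPM in heat. All groups overlapped, and no change was detectable at this depth, with standard errors of 0.34 to 0.38 on the log2 scale and adjusted p from 0.287 to 0.964 (edgeR).

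**Figure D2:**
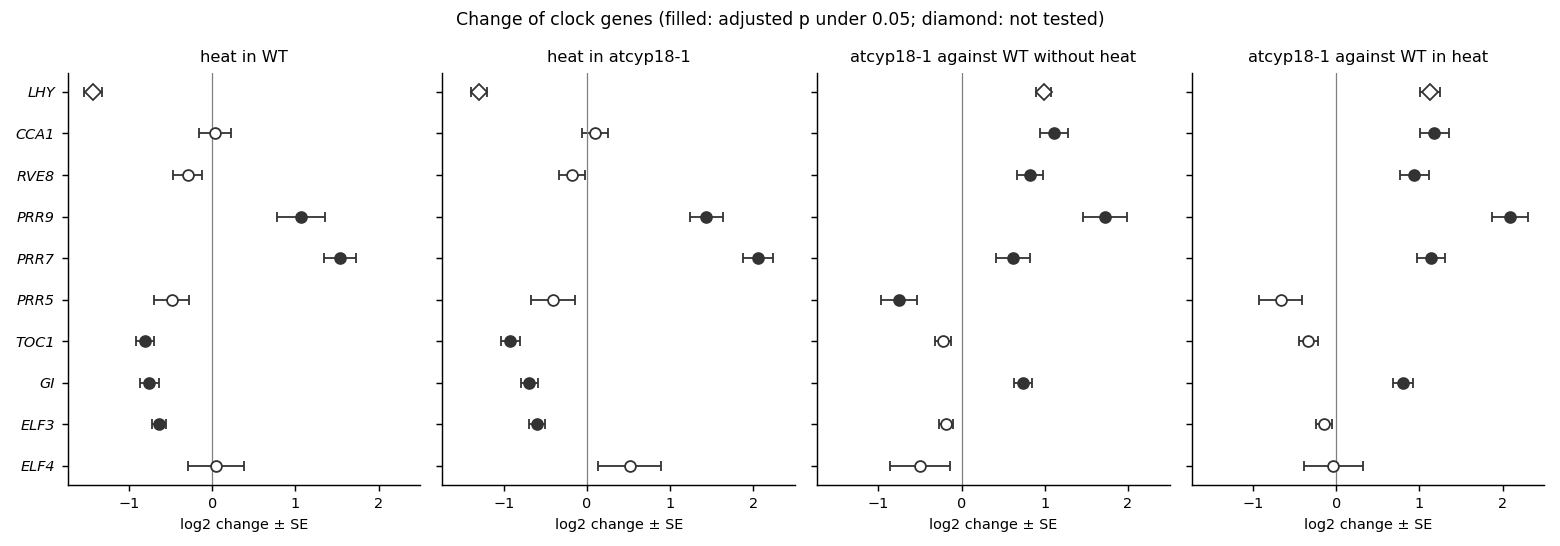
log2 change ± SE (horizontal axis) of each clock gene in the 4 pairwise comparisons; filled points passed an adjusted p of 0.05, open ones did not, and LHY (diamond) was not tested. PRR7 and PRR9 lie to the right of 0 in all 4 panels, and TOC1 and ELF3 to the left in all 4.

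Counted over the 9 members other than LHY, 2 rose and 3 fell in heat in WT, or 5 of 9 where 50.1% of all 17296 tested genes changed. In the mutant the same 2 and 3 were called, where 46.3% of all genes changed. The shares of members called in heat were thus near the background. Groups did not overlap for 5 of the 9 in WT heat and for 6 in mutant heat, where the groups of 56.0% and 54.6% of all genes did not. Mutant against WT without heat, 5 rose and 1 fell, 6 of 9 against 23.4% of all genes. In heat 5 rose and 0 fell, 5 of 9 against 16.7% of all genes, with 2 lower (TOC1 and PRR5) at an unadjusted p under 0.05 by edgeR and 0 called lower by DESeq2, where 8.49% of all genes fell. Groups did not overlap for 7 of the 9 without heat and 8 in heat, beside 40.1% and 32.6% of all genes. The 5 that rose in the mutant, CCA1, RVE8, PRR9, PRR7 and GI, were the same in both conditions by edgeR. DESeq2 called 4 of them without heat, PRR7 not among them, and 5 in heat. The median log2 change of the 9 was 0.62 without heat and 0.81 in heat, beside 0.00 and -0.02 over all genes. The comparisons within a condition and within a genotype share libraries, so their counts are not independent.

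Heat and genotype combined without a called interaction. The change of PRR7 in heat was larger in the mutant by 0.52 ± 0.26 on the log2 scale (adjusted p = 0.338, edgeR). By edgeR 0 of the 9 were called for the interaction, 0 had an unadjusted p under 0.05, and 0 were called by DESeq2, which gave an adjusted p to 4 of the 9. Over all genes 1.08% were called.

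Some markers of the seed, the seedling leaf and the root changed with the genotype or with heat. In heat 7 of 9 seed storage and oleosin genes rose in WT and 3 in the mutant, where 25.0% and 22.9% of all genes rose. All 9 rose in the unheated mutant, with a summed level of 7549 to 8943 CPM against 2311 to 3741 in WT, and 5 of 9 rose in the heated mutant against WT, with 6812 to 10650 against 2814 to 5184 CPM, where 11.2% and 8.17% of all genes rose. The 5 light-harvesting and Rubisco genes of the seedling leaf summed to 899 to 1066 CPM in the unheated mutant and 852 to 994 in WT (2 of 5 rose). In heat they summed to 1207 to 1296 and 1004 to 1181 CPM (3 of 5 rose), where 11.2% and 8.17% of all genes rose. Most of each sum was RBCS1A, at a mean of 811 CPM in unheated WT and 875 in the unheated mutant. With heat, 1 of the 5 rose in WT and 3 in the mutant, where 25.0% and 22.9% of all genes rose. The summed level of the 5 root genes was lower in heat without overlap. It was 44.8 to 46.9 CPM without and 34.3 to 37.6 with heat in WT, and 46.2 to 47.9 and 26.5 to 32.3 CPM in the mutant. Of the 5, 3 fell in WT heat and 2 in mutant heat, where 25.1% and 23.4% of all genes fell. SCR, a regulator of root patterning, fell by 1.30 (SE 0.16) and 1.66 (SE 0.18) on the log2 scale. WER did not fall, with changes of 0.07 in both genotypes, and SHR changed by -0.007 in WT heat, none of them called. Flower genes did not pass the filter on low counts and were not tested. They summed to 0.488 to 2.85 CPM in all libraries, and 3 of the 4 flower genes had no read in unheated WT. With heat, the share of reads on plastid genes was 4.46 to 5.60% against 9.93 to 11% without. The part of these in the results of the clock genes was not tested. With nuclear genes alone in the scaling, 5, 5, 6 and 5 of the 9 members were called in the 4 comparisons, as above.

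Splicing of the members was read from the authors' deposited tables, in which each event carries the authors' own ratio of means and unadjusted p. Rows of members were found in 8 of the 16 tables, none of them for 5′ splice sites and none for intron retention between genotypes. Every listed intron of a member had a higher ratio of intron to adjacent exon reads in heat. The deposited p of each was under 0.05, so the intron tables may list called events only, and the rise is not a separate test. Of 2488 listed introns, 92.8% were higher in heat in WT, and of 2458, 82.2% in the mutant, so the direction is that of the tables as a whole.

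PRR7 was the member with the most retained introns. For heat in WT all 8 were listed. Among 1259 genes with a listed intron, 33 had 8 or more and 63 had 6 or more. At introns 3, 4 and 5 the mean ratio in WT heat was 0.984, 0.924 and 0.948. The ratio for intron 4, shown above, was 0.133, 0.231 and 0.157 in WT without heat and 0.987, 0.710 and 1.08 in WT heat. For intron 5 it was 0.333, 0.308 and 0.213 without heat and 0.983, 0.851 and 1.01 in heat. For intron 6 it was 0.0588, 0.0556 and 0.111 without heat and 0.393, 0.429 and 0.470 in heat. No heated library overlapped an unheated one at any of these. The authors' deposited table gives a ratio of means of 5.32 (p = 0.0158) for intron 4, 3.33 (p = 0.000622) for intron 5 and 5.72 (p = 0.000311) for intron 6. The normalized intron counts behind the unheated WT ratios were low, 2.00 to 3.63, 4.00 to 4.54 and 1.00 to 2.72 per library for these 3 introns.

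At the other PRR7 introns the rise in WT was of like direction. Intron 1, in the 5′ untranslated region, went from 0.0659 ± 0.0362 to 0.618 ± 0.163 (SD, n = 3). The authors' deposited table gives it a ratio of means of 9.38 (p = 0.0236), the widest for this gene in WT. Intron 2, with its stop codon near the donor site, went from 0.0972 ± 0.102 to 0.387 ± 0.0834. Intron 3 went from 0.331 ± 0.272 to 0.984 ± 0.0549, with 1 unheated library at 0.645. Introns 7 and 8 came to the lowest ratios in heat, 0.286 ± 0.00589 and 0.260 ± 0.0330, with reads not scaled to length.

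In the mutant, PRR7 introns 1 to 6 were listed for heat and introns 7 and 8 were not. Intron 1 went from 0.0425 ± 0.0146 to 0.670 ± 0.0890, a ratio of means of 15.8 in the authors' deposited table (p = 0.00560). Its normalized intron count in the unheated mutant was only 2.00 to 2.87 per library. Intron 4 was at 0.160, 0.0408 and 0.294 without heat and at 0.805, 0.824 and 0.598 in heat. The heated means of introns 2 to 6 were 0.244, 0.952, 0.742, 0.829 and 0.369, beside 0.387, 0.984, 0.924, 0.948 and 0.430 in WT heat. No PRR7 intron was listed between the genotypes, so a difference in its splicing between the genotypes was not tested here.

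The expression table also counted more PRR7 reads for an assembled transcript than for the annotated model. It lists 5 PRR7 transcripts, and the assembled one is that with the most reads. Its reads beyond those of the annotated model were 0 to 1 per library in all 6 unheated libraries. In heat they were 57 to 92 in WT, 15.4 to 18.6% of the assembled transcript's reads, and 58 to 88 in the mutant, 8.76 to 12.4%. Where these reads lie was not examined. The fold changes of PRR7 above rest on the annotated model and leave these reads out. All heated libraries were above all unheated ones. In heat the 2 genotypes did not overlap in the share, though they did in the number of these reads.

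CCA1 and PRR9 each had 1 intron listed, for heat in the mutant. At CCA1 intron 4, the long intron whose ends are shown above, the ratio was 0.345, 0.254 and 0.286 in the unheated mutant and 1.33, 1.37 and 1.68 in the heated mutant. The ratio was thus above 1 in every heated library, for an intron of 478 bases and with reads not scaled to length. The authors' deposited table gives a ratio of means of 4.95 (p = 0.00634). The CCA1 gene level did not differ detectably between these groups, while its scaled intron signal went from 5.55 ± 1.88 to 20.9 ± 5.50 (SD, n = 3). At PRR9 intron 2 the ratio was 0.125, 0.364 and 0.385 without heat and 0.774, 0.667 and 0.808 in heat (2.57-fold, p = 0.0165, in the authors' deposited table). Neither intron was listed for WT heat. Whether they differ between the genotypes was not tested.

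**Figure D3:**
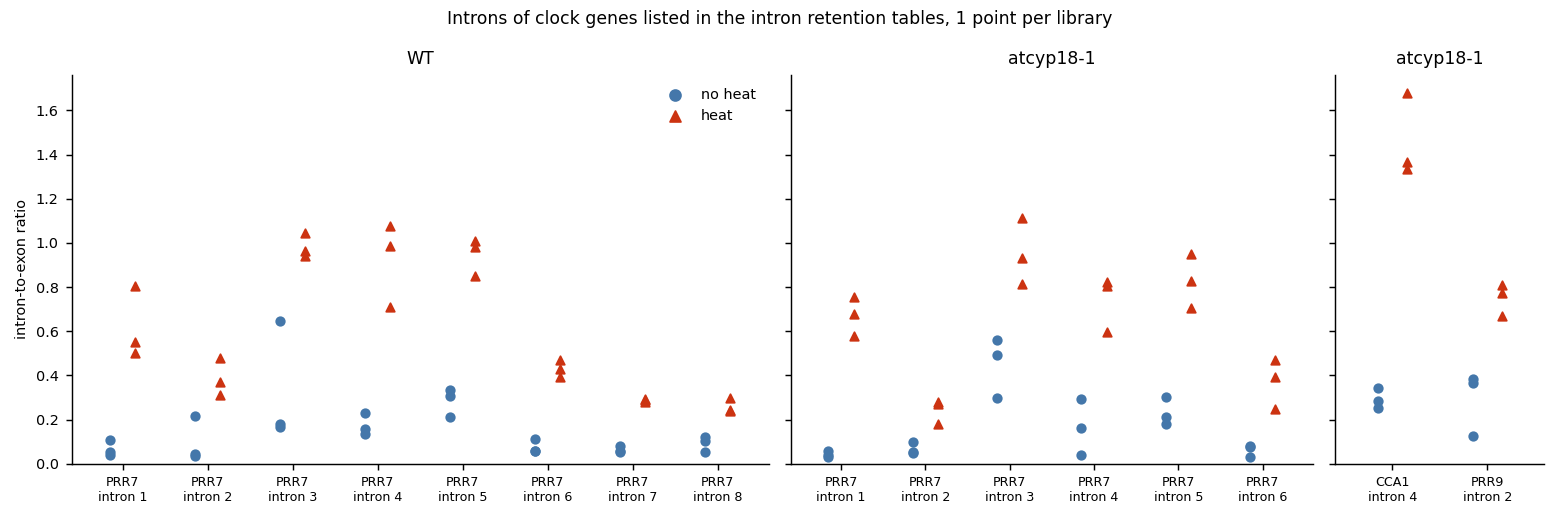
Ratio of intron reads to adjacent exon reads (vertical axis, linear, from 0) in each library for the introns of PRR7, CCA1 and PRR9 that the deposited tables list for heat; circles are unheated and triangles heated libraries. PRR7 introns 3, 4 and 5 reach 0.598 to 1.11 in heat, and CCA1 intron 4 reaches 1.33 to 1.68.

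LHY was the member with listed splice junctions. At the tandem acceptor shown above, the junction to the second AG pair, chr1:35472-35566, was read 9, 7 and 10 times in unheated WT and 17, 25 and 19 times in the unheated mutant. It was read 0, 0 and 6 times in heated WT and 0, 0 and 7 times in the heated mutant. No number from 1 to 5 occurs in the junction columns and the lowest above 0 is 6, so a 0 may stand for a few reads. These junction reads were 3.02% and 3.90% of the LHY reads in unheated WT and mutant, and 2.13% and 1.43% in heat. The authors' deposited table calls the difference between the unheated genotypes (2.21-fold, p = 0.0284) and that between unheated and heated mutant (6.40-fold, p = 0.00581). The junction reads are not scaled to the level of LHY, which itself was higher in the mutant and lower in heat.

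The junction chr1:37204-37372, present in 6 annotated LHY models, had 61 reads in unheated WT, 168 in the unheated mutant, 0 in heated WT and 28 in the heated mutant. Against 860, 1564, 282 and 490 reads of LHY in those groups, these were 7.09%, 10.7%, 0 and 5.71%. The deposited table calls it lower in heat in both genotypes, 21.3-fold in WT (p = 0.00507) and 5.52-fold in the mutant (p = 0.0237), by the authors' own ratio. The junction chr1:35964-36623, also in 6 models, had 101 and 161 reads in unheated WT and mutant and 75 in the heated mutant, 11.7%, 10.3% and 15.3% of LHY reads. In heated WT the same row had 14 reads (4.96%), with 1 library's reads listed on another junction, chr1:35983-36623. The authors' deposited table calls the genotypes different in heat for this row (4.59-fold, p = 0.0493). The authors' deposited table also calls this row lower in heat in the mutant (2.1-fold, p = 0.0253). Its share of LHY reads in the mutant was higher in heat, as given above.

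LHY was compared with all tested genes by the root mean square difference of log2 CPM over the 12 libraries, each gene centred on its mean. The nearest 5 were BBX18 (0.32), AT5G15950 (0.33), the plastid gene ATCG00280 (0.35), BOR1 (0.35) and the plastid gene ATCG00700 (0.36), where the median of all genes was 0.90 and the spread of LHY itself 0.86. BBX18, a B-box zinc finger protein, was at 7.42 and 3.43 CPM in WT without and with heat and at 11.1 and 6.36 CPM in the mutant. Among the members, GI was nearest to LHY (0.37). CCA1 and RVE8 were nearest to each other (0.26), as were TOC1 and ELF3 (0.20) and PRR7 and PRR9 (0.58). PRR5 was nearest to TOC1 (0.31), GI to RVE8 (0.29) and ELF4 to PRR5 (0.54), the last a distance above the spread of ELF4 itself (0.41).

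Of 57 other clock genes in 5 lists, 52 were tested. The list of REVEILLE and LNK genes, relatives and partners of RVE8, moved mostly upward. In heat 7 of its 11 genes rose in WT and 9 in the mutant, where 25.0% and 22.9% of all genes rose. Mutant against WT, 5 of 11 rose without heat and 9 in heat, where 11.2% and 8.17% of all genes rose. DESeq2 called 6, 8, 5 and 8 rises in these 4 comparisons. By edgeR 0 of the 11 fell in any of the 4 comparisons, 0 had a fall at an unadjusted p under 0.05, and 0 fell by DESeq2. The median log2 changes of the list were 0.70, 0.73, 0.56 and 1.05 in the same order, beside medians of all genes between -0.02 and 0.00. LNK4 was at 35.1 ± 5.05 CPM in unheated WT (SD, n = 3), 57.2 ± 7.93 in heated WT, 87.1 ± 1.29 in the unheated mutant and 121 ± 11.8 in the heated mutant. It rose in the mutant by 1.31 ± 0.11 on the log2 scale without heat (adjusted p = 5.26e-08, edgeR) and by 1.08 ± 0.10 in heat. LNK2 rose in the mutant by 0.97 ± 0.12 without heat and by 1.43 ± 0.13 in heat (adjusted p = 2.31e-07). LNK3 rose by 1.16 ± 0.18 and 1.27 ± 0.17 in the same comparisons. In heat RVE7 rose by 1.30 ± 0.16 in WT and by 1.64 ± 0.16 in the mutant, and LNK1 by 0.96 ± 0.22 and 1.45 ± 0.20. RVE2 rose in heat by 1.19 ± 0.28 in WT and by 2.05 ± 0.27 in the mutant.

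**Figure D4:**
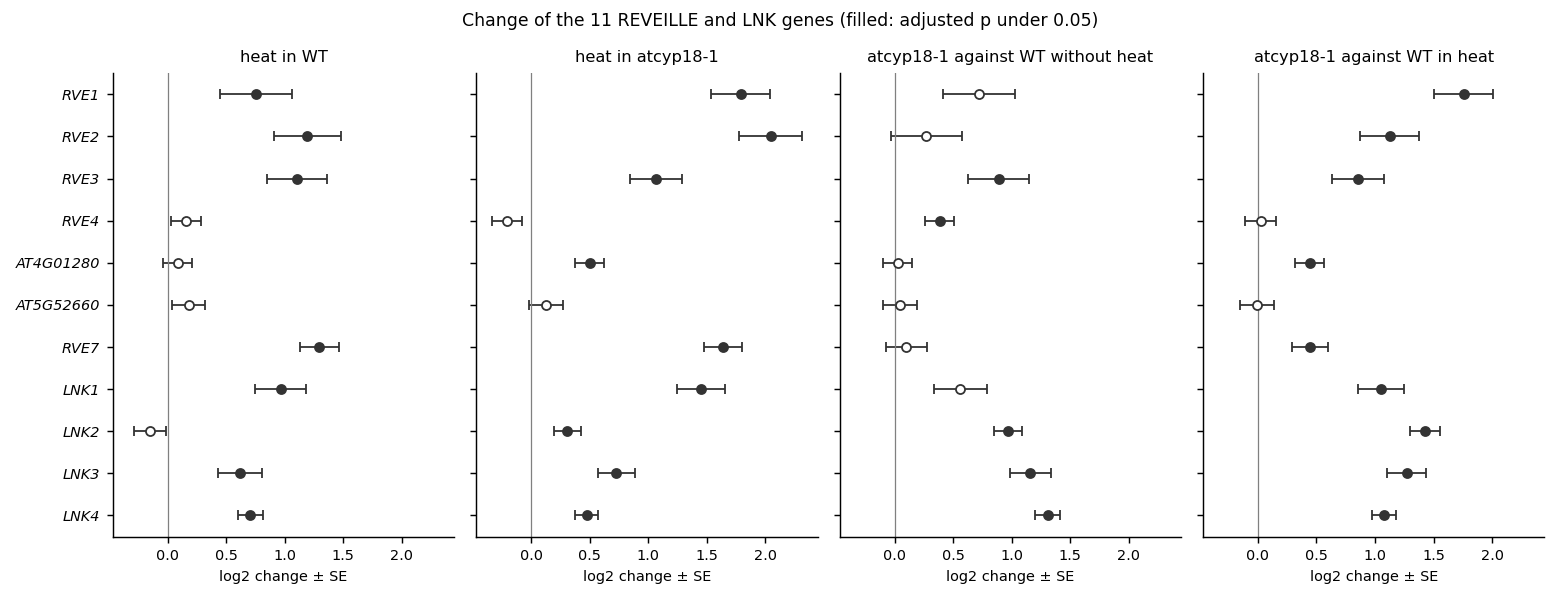
log2 change ± SE (horizontal axis) of the 11 genes of the REVEILLE and LNK list in the 4 pairwise comparisons; filled points passed an adjusted p of 0.05, and a gene without a symbol in the reference carries its locus identifier. In the mutant against WT in heat 9 of the 11 points are filled and lie to the right of 0.

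The other lists moved in both directions. Of the evening complex and its relatives, 5 of 6 were tested. EFL4, an ELF4-like gene, rose in heat by 0.72 ± 0.16 in WT and 0.98 ± 0.19 in the mutant, and fell in the mutant by 0.74 without heat (SE 0.18, adjusted p = 0.00613, edgeR) and by 0.48 in heat (SE 0.16, adjusted p = 0.0489). DESeq2 did not call the last (adjusted p = 0.127). LUX, the DNA-binding member of the evening complex, fell in the unheated mutant by 0.41 (SE 0.13), and BOA, its relative, rose in the mutant by 0.60 ± 0.14 and 0.48 ± 0.13 and in WT heat by 0.43 ± 0.14. In this list 2 rose and 0 fell in WT heat (0 at an unadjusted p under 0.05, and 0 by DESeq2), where 25.0% and 25.1% of all genes did. In mutant heat 1 rose, where 22.9% of all genes did. Mutant against WT, 1 rose and 2 fell without heat, where 11.2% and 12.2% of all genes did. In heat 1 rose and 1 fell by edgeR and 1 and 0 by DESeq2, where 8.17% and 8.49% of all genes did by edgeR.

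Of 21 other clock regulators, 3 rose and 4 fell in WT heat and 4 rose and 3 fell in mutant heat, or 7 of 21 in each where 50.1% and 46.3% of all genes changed. HSFB2B, a heat shock factor known to repress PRR7 in Arabidopsis, went from 4.08 ± 1.04 to 24.8 ± 7.11 CPM in WT heat (SD, n = 3) and from 3.02 ± 0.721 to 43.0 ± 14.5 in the mutant, rises of 2.60 ± 0.26 and 3.85 ± 0.27 on the log2 scale. In heat it was higher in the mutant by 0.79 ± 0.20 by edgeR (adjusted p = 0.00992), a call that DESeq2 did not make (adjusted p = 0.0861). LWD1 rose in heat by 0.52 ± 0.08 in WT and by 0.29 ± 0.08 in the mutant, and in the unheated mutant against WT by 0.45 ± 0.08. DET1 fell in WT heat by 0.89 (SE 0.17), and its change in mutant heat, -0.09 ± 0.18, was not called. ZTL and LKP2, related F-box genes, fell in mutant heat by 0.70 (SE 0.12) and 0.71 (SE 0.15). In WT heat the change of ZTL was -0.46 ± 0.12, also called, and that of LKP2 was -0.14 ± 0.14, not called. Mutant against WT, 2 of the 21 rose and 4 fell without heat (2 and 3 by DESeq2), where 23.4% of all genes changed. In heat 1 rose and 1 fell (0 and 1 by DESeq2), where 16.7% changed. FKF1, the third of these F-box genes, fell in the mutant by 1.05 without heat (SE 0.24) and by 1.04 in heat (SE 0.27). PRR3, a partner of TOC1, fell by 0.91 in the unheated mutant (SE 0.15).

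Of 8 splicing and RNA factors with clock phenotypes, 4 rose and 1 fell in WT heat and 3 rose and 2 fell in mutant heat (3 and 1 by DESeq2). These were 5 of 8 in each, where 50.1% and 46.3% of all genes changed. GRP7 and GRP8, RNA-binding proteins that cycle under the clock, rose in heat by 0.87 ± 0.08 and 0.87 ± 0.12 in WT and by 0.88 ± 0.09 and 0.88 ± 0.13 in the mutant. SKIP, a splicing factor whose loss lengthens the period of the Arabidopsis clock, fell by 0.55 (SE 0.08) and 0.62 (SE 0.08). In the mutant GRP7 fell by 0.63 without heat (SE 0.09) and by 0.62 in heat (SE 0.08), GRP8 by 0.38 in both (SE 0.13 and 0.12), and LSM5 by 0.43 in heat (SE 0.09). These were 2 and 3 falls of 8, where 12.2% and 8.49% of all genes fell. DESeq2 called 1 and 2, without GRP8 (adjusted p = 0.0562 and 0.0640). By edgeR 0 of 8 rose in the mutant (0 at an unadjusted p under 0.05 and 0 by DESeq2).

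Of 11 clock outputs, 7 were tested. CDF3 and CDF2, repressors of flowering genes, fell in heat by 1.08 (SE 0.28) and 0.46 (SE 0.17) in WT and by 0.89 (SE 0.25) and 0.80 (SE 0.18) in the mutant, and the catalase gene CAT3 rose in WT heat by 0.38 ± 0.10. DESeq2 did not call CDF2 in WT heat (adjusted p = 0.0514). By edgeR 1 of 7 rose and 2 fell in WT heat and 2 fell in mutant heat, where 50.1% and 46.3% of all genes changed. Mutant against WT, 5 of 7 rose without heat and 3 in heat by edgeR, where 11.2% and 8.17% of all genes rose, and DESeq2 called 3 in each. By edgeR 0 fell in these (0 at an unadjusted p under 0.05 and 0 by DESeq2). PIF4, a growth regulator under the control of the evening complex, was at 1.31 ± 0.254 CPM in unheated WT (SD, n = 3) and 3.08 ± 0.279 in the unheated mutant, and at 1.13 ± 0.448 and 2.98 ± 0.645 in heat, rises of 1.21 ± 0.28 and 1.37 ± 0.32 on the log2 scale. Its relative PIF5 rose by 0.98 ± 0.22 and 1.38 ± 0.25, and CAT2 by 0.30 ± 0.06 and 0.37 ± 0.06.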

How the data were processed

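Polyadenylated RNA of 12 libraries, 3 in each of 4 groups taken from the titles, was measured. Per the submitters' processing notes HTSeq and DESeq were used; aligner, splicing caller, build and versions are not given in the sources here. For 23337 genes the authors deposited read counts by transcript, not normalized. The lowest count was 1, so each value may be the count plus 1. The lowest-numbered annotated transcript stood for each gene. The authors' deposited intron tables held a normalized intron signal and an intron-to-adjacent-exon read ratio, and the junction tables gave read counts. Every event also carried a deposited ratio of means and a p-value that was not adjusted. In the TAIR10.1 reference 98.8% of listed introns were GT to AG, so its coordinates are used.

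The test of the counts was that of edgeR 4.0.16 in R 4.3.3 (scaled by TMM, filterByExpr, quasi-likelihood F test, 4 group means over all 12 libraries), Benjamini-Hochberg adjusted over 17296 genes and called at 0.05. The script was tested on simulated data. SE is the log2 change over the square root of F. Depth was 7.47 to 10.5 M reads, which limits ELF4 most. Alternatives were DESeq2 1.42.0, other scalings, filters and transcripts, a replicate block and each library left out. Members and lists were chosen with earlier results of these data known. Named genes were all members and, of the other lists, up to 3 called genes with the smallest p per list and comparison. Gene names came from RefSeq. Of the clock lists, those not tested for low counts were CDF1, AT1G69570, CO, COL2 and EFL1. Motifs were searched in 300 bases before each gene start with Python 3.11.15.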

Additional observations from a re-analysis of the deposited data

Results flagged for a closer look

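PRR3 was the listed clock gene whose change in heat differed between the genotypes by a test of the interaction. Its level was 11.5 ± 1.39 CPM in unheated WT and 7.03 ± 0.304 in heated WT (SD, n = 3), and 6.12 ± 0.152 in the unheated and 7.21 ± 0.827 in the heated mutant. It fell in WT heat by 0.71 on the log2 scale (adjusted p = 0.000331, edgeR), and its change in mutant heat was 0.23 (adjusted p = 0.270). The difference was 0.93 ± 0.22 (adjusted p = 0.0438, edgeR). It was the 1 call among 52 tested clock genes of the lists, where 1.08% of all genes were called. DESeq2 gave it no adjusted p, so the call has no check by that tool. It missed the threshold without the filter on low counts (adjusted p = 0.0997), with no scaling factors (0.0530) and without any single library other than WT normal replicate 2 or mutant heat replicate 2, with adjusted p from 0.0510 to 0.125.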

How the results depend on the processing

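The counts of called members kept within 1.5 times in 103 of 104 refits. The exception was the mutant against WT in heat with no scaling factors, where 8 members were called (5 higher and 3 lower) in place of 5. That scaling also moved the median of all genes by -0.21, -0.23, -0.14 and -0.18 in the 4 comparisons. Leaving out 1 library gave 5 to 6, 5, 4 to 6 and 5 to 6 called members in the 4 comparisons and 0 for the interaction. For PRR7 in the unheated mutant the adjusted p ran from 0.00078 to 0.109, and it missed the threshold under DESeq2 (0.0681), without the filter (0.0650), with no scaling factors (0.0526) and without any of WT normal replicates 1 to 3 (0.0784, 0.0756 and 0.0697) or mutant normal replicates 1 and 2 (0.109 and 0.0705).

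Directions turned for changes that were never called. CCA1 in WT heat became -0.0157 without the filter and -0.17 with no scaling factors, and in mutant heat -0.13 with no scaling factors. ELF4 in WT heat became -0.00969 and -0.17 under the same settings. With single libraries left out, CCA1 ran from -0.0634 to 0.11 in WT heat and from -0.0141 to 0.26 in mutant heat, and ELF4 from -0.24 to 0.36 in WT heat and from -0.27 to 0.24 in the mutant against WT in heat. The cause was not tested.

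Over all genes, leaving out 1 library gave 2457 to 4206 called in the unheated mutant (lowest without mutant normal replicate 3), 1689 to 2936 in heat, and 12 to 314 for the interaction, where 187 were called with all. The interaction count was 22 without the filter. With the replicate number as a block it was 323. Same-numbered libraries deviated together with r from -0.0864 to 0.105, and 6 of 12 correlated best with their own number. Whether the numbers pair the samples cannot be told from these values. The block moved 1 member across the threshold, TOC1 in the mutant in heat (adjusted p = 0.0456). With the normalized intron count in place of the ratio, 16 of 16 listed introns of members were again higher in every heated library. These introns were listed with a deposited p under 0.05 for heat, and the count is not scaled to the level of the gene. The count is therefore no separate check of the ratio.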
